A study of Homo sapiens with 11 samples.

Results

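Tamoxifen and knockdown of nemo-like kinase (NLK) were set directly against each other in BT483, an estrogen receptor positive human breast carcinoma line. The comparison took the BT483 libraries by their labels: 1 library of cells given control small interfering RNA (siRNA) with tamoxifen against the 2 libraries of cells given an NLK siRNA, named type 1 and type 2. These are 3 of the 11 libraries of the series. The BT483 library with control siRNA alone entered no comparison, and its level is given beside some values only as a reference. A value higher or lower in the tamoxifen library can therefore reflect either arm.

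All of the BT483 cultures were held without estrogen for 48 h, in phenol red-free medium with charcoal-stripped serum, before seeding. They were then reverse transfected with siRNA at 10 nM and kept for 72 h. The tamoxifen culture received a non-targeting control siRNA pool and 0.5 µM tamoxifen, and the NLK siRNA cultures received no tamoxifen. The same groups exist for T47D-TamR, a derivative of T47D cells passaged in tamoxifen until resistant and propagated in it. T47D-TamR also has a drug arm without siRNA, with no treatment time recorded. Its groups are DMSO, VX-702 at 0.5 µM, and DMSO with 0.5 µM tamoxifen, and all of them entered the fit. Each group is 1 library made from 1 culture, and nothing in the labels describes a second culture of any group, so no condition has a repeat library here. The spread behind each p-value comes from unlike libraries: type 1 against type 2 in each line, and the tamoxifen effect in the T47D-TamR siRNA arm against that in its drug arm. It may be technical or a difference between those treatments.

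Estrogen receptor α, encoded by ESR1, is a ligand-activated transcription factor that drives genes such as GREB1, TFF1 and PGR and carries luminal breast cancer cells from G1 into S phase. Tamoxifen competes with estradiol for its ligand pocket. NLK belongs to the extended MAP kinase family and phosphorylates transcription factors downstream of Wnt and Notch signalling. An siRNA lowers it by directing cleavage of its mRNA.

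The siRNAs are shown because they define the knockdown arm. Each is the sense strand as the labels' protocols give it, 5′ to 3′. Capitals mark the bases that pair with the seed of the guide strand, its bases 2 to 8.
siRNA 1: gucaguaacagAUCCAAGa
siRNA 2: gagcugaauuuGAAGACUa
In GENCODE 29 transcripts on GRCh38 each sequence matched NLK and no other gene. The target of siRNA 1 lies in coding exon 2 of 11 at chr17:28122603-28122621, and that of siRNA 2 in the 3′ UTR, in exon 11, at chr17:28196045-28196063. That types 1 and 2 are siRNAs 1 and 2 is read from the numbering alone.

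NLK (chr17:28041737-28196381) stood at 34.1 CPM (counts per 1e+06, on library totals scaled by edgeR's TMM factors) with tamoxifen, 8.46 with type 1 and 5.38 with type 2. Both siRNA libraries were far below the tamoxifen library, which was near the 29.6 CPM of control siRNA alone. The type 1 library held 24.8% (exact 95% interval 20.5 to 29.8) and type 2 15.8% (13.2 to 18.8) of the tamoxifen library's level, intervals that cover counting error only. The log2 difference, tamoxifen minus both NLK siRNAs, was 2.32 (SE 0.26, adjusted p = 0.00134, edgeR quasi-likelihood test with Benjamini-Hochberg adjustment, as for every adjusted p here). NLK is the target, so this difference checks the labels.

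The 4 BT483 libraries held between 14637083 counts (type 1) and 25728513 (type 2), and the tamoxifen library held 25274101. Before TMM scaling a floor of 3 counts corresponded to 0.119 CPM with tamoxifen, 0.205 with type 1 and 0.117 with type 2. All 10 epithelial markers were present in each library, with summed levels from 14849 to 16823 CPM. Leukocyte markers were scarce: the 14 leukocyte genes summed to 8.13 CPM with tamoxifen, 11.02 with type 1 and 23.9 with type 2. CD3D, CD3E and CD2 were at 0 in all 4 libraries. The 10 endothelial genes summed to 28.8, 38.4 and 34.4 CPM and the 20 mesenchymal genes to 163, 180 and 273 CPM in the same order. Some members of these 2 lists were plainly expressed. COL5A1 was at 95.8, 101 and 169 CPM, FN1 at 44.3, 52.5 and 74.8, and the endothelial marker ENG at 24.9, 32.7 and 29.7. Mitochondrially encoded genes took 11.5% of counts with tamoxifen, 10.0% with type 1 and 9.18% with type 2.

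Across the transcriptome the tamoxifen library departed from both knockdown libraries mainly downward. Of 23766 genes tested, 147 (0.619%) passed an adjusted p of 0.05. At an unadjusted p under 0.05 there were 1990 (8.37%). The 147 split into 127 lower with tamoxifen (0.534%) and 20 higher (0.0842%), with the siRNA target NLK among the higher. Every one of the 147 was on the same side of both siRNA libraries, 115 of the lower and 16 of the higher genes by at least 2-fold. The test favours such genes, because the gap between the siRNA libraries enters its error, so this is no separate check. Among the lower genes were 13 of a list of 44 estrogen-response genes and 26 of the G1/S and G2/M cell cycle lists. The median log2 difference of all tested genes was -0.01; 51% had a negative and 48.5% a positive difference, and the tamoxifen library was below both siRNA libraries in 33.5% and above both in 32.7%.

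With a lone tamoxifen library the test assumes that it varies like the other libraries. Each gene's spread was moderated by information shared across genes (median prior degrees of freedom 10.9). The gene's own spread was estimated on 3 residual degrees of freedom from 10 libraries. One of the 3 rests on giving T47D-TamR 1 tamoxifen effect in both of its arms (control siRNA, and DMSO). With an effect for each arm, a fit added after seeing the data with 2 residual degrees of freedom, 40 genes were called (6 higher, 34 lower), of which 39 were among the 147. A permutation of the 3 BT483 libraries cannot go below an exact p of 0.333. The fits that leave out 1 other library are not independent checks. Those without a T47D-TamR library keep the compared BT483 libraries and alter the spread, the scaling and the genes tested. Leaving out the T47D-TamR control siRNA, DMSO or either tamoxifen library removes the degree of freedom that rests on the shared tamoxifen effect. None can leave out the BT483 tamoxifen library. The count of calls ran from 35 to 331 when 1 other library was left out: 331 without type 1, 240 without type 2, 40 without the T47D-TamR control siRNA library, 268 and 229 without its type 1 and type 2 libraries, 35 without either of its tamoxifen libraries (control siRNA or DMSO with tamoxifen), and 41 without DMSO. Calls kept in all 9 such fits numbered 32, of which 28 were lower and 4 higher with tamoxifen. On the deposited log2 TPM values limma called 5 genes, 100% of them lower against 86.4% here: CYP2B7P, GREB1, AREG, SUSD3 and MIR6812.

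Estrogen-response genes were lower with tamoxifen than with either NLK siRNA. Of the 44 genes on the list 40 had a negative difference. In the list 13 (29.5%) were called lower, against 0.534% of all genes tested. KRT13 alone (2.27%) was called higher, against 0.0842%. The list's median was -1.01, with -0.81 against type 1 and -1.17 against type 2. DESeq2 called 20 of the 44 (379 of all 23766 genes) and limma 3 (5 of all 18638). Summed over the list, the tamoxifen library held 6063 CPM, type 1 9295, type 2 10588 and control siRNA alone 11228.

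GREB1, an estrogen receptor coactivator and early target (chr2:11482341-11642788), stood at 78.0 CPM with tamoxifen, 557 with type 1 and 606 with type 2. The NLK siRNA libraries lay close to each other and under the 767 CPM of control siRNA alone. The level was 7.46-fold higher with NLK siRNA (log2 difference -2.90, SE 0.23, adjusted p = 7.28e-05). TFF1, a secreted trefoil peptide and a standard estrogen marker, was at 63.8, 465 and 708 CPM in the same order. Its difference was -3.20 (SE 0.31, adjusted p = 0.00351), and control siRNA alone, at 672 CPM, lay between the siRNA libraries. PGR, the progesterone receptor, was at 1.03, 11.98 and 29.1 CPM, with 11.9 in the control siRNA library. For PGR the siRNA libraries differed from each other, with type 2 the higher (log2 difference -4.31, SE 0.68, adjusted p = 0.0267).

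CXCL12, a chemokine, stood at 0.887 CPM with tamoxifen, which is 24 counts, against 16.3 with type 1 and 28.5 with type 2 (log2 difference -4.65, adjusted p = 0.00351). SUSD3 had 2.07, 23.0 and 25.2 CPM (-3.54, adjusted p = 0.00134), and PDZK1, a scaffold protein of membrane transporters, 2.36, 15.4 and 22.2 CPM (-2.99, adjusted p = 0.00645). AREG, which encodes the EGF receptor ligand amphiregulin, was at 48.0, 228 and 250 CPM beside 248 with control siRNA alone (-2.31, SE 0.20, adjusted p = 0.000108). In all 4 of these genes the siRNA libraries lay together and apart from the tamoxifen library. The other called members were MYBL1 (-2.32), IGFBP4 (-1.71), STC2 (-1.56), PTGES (-1.45), IL17RB (-1.40) and RERG (-1.30).

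**Figure D1:**
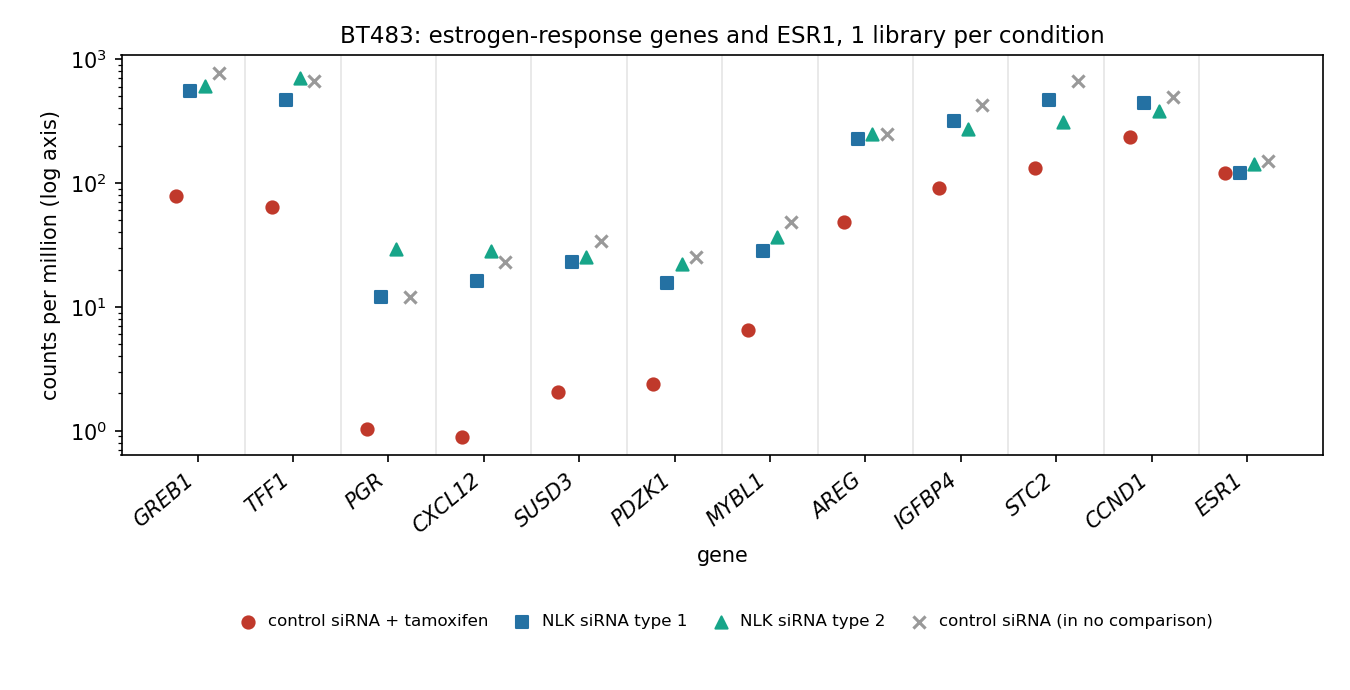
Level of 11 estrogen-response genes and of ESR1 in the 4 BT483 libraries, in CPM on a log axis, with 1 point per library. For GREB1 the tamoxifen point is at 78.0 and the NLK siRNA points at 557 and 606, while for ESR1 the 3 compared libraries lie between 120 and 143.

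The receptor itself did not separate the arms. ESR1 was at 120 CPM with tamoxifen, 120 with type 1 and 143 with type 2 (log2 difference -0.14, SE 0.24, adjusted p = 0.969). CCND1, the G1 cyclin D1, had 234, 444 and 382 CPM and missed the threshold (-0.82, SE 0.19, adjusted p = 0.0758). NRIP1, a receptor corepressor, also missed it at 33.1, 64.3 and 70.5 CPM (-1.02, adjusted p = 0.0516). ERBB2 (0.26, SE 0.19) and BCL2 (0.18, SE 0.37) passed no threshold, and the sign for BCL2 turned to -0.041 without type 1. The sign for ESR1 turned to 0.026 without type 2.

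GREB1, TFF1, CXCL12, SUSD3, PDZK1, AREG and MYBL1 were called in all 9 fits that left out 1 other library. The call of PGR was lost in 6 of them, each without a T47D-TamR library, with adjusted p up to 0.0611. IGFBP4 lost its call without either T47D-TamR tamoxifen library (adjusted p up to 0.0512). STC2, PTGES and IL17RB lost theirs without the T47D-TamR control siRNA, DMSO or either tamoxifen library (up to 0.155, 0.0780 and 0.149), and RERG without those, VX-702 or BT483 type 2 (up to 0.195).

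Of 20 genes that estrogen is known to repress, 19 were tested and 13 had a positive difference, with a median of 0.20. One was called higher (5.26% of the list against 0.0842% of all genes) and none lower, while 7 of the 19 had an unadjusted p under 0.05 (8.37% of all genes did) and DESeq2 called 4. The called gene was EFEMP1, an extracellular matrix glycoprotein, at 81.2 CPM with tamoxifen, 46.8 with type 1 and 42.8 with type 2 (0.86, SE 0.17, adjusted p = 0.0417). IL1R1, the interleukin 1 receptor, was at 253, 116 and 54.4 CPM (1.58, SE 0.39, adjusted p = 0.216). BCL6, at 3.69, 7.17 and 18.7 CPM, had the opposite sign (-1.83, adjusted p = 0.566). The call of EFEMP1 was lost in 6 of the 9 fits with a library left out: without either BT483 siRNA library, or without the T47D-TamR control siRNA, DMSO or either tamoxifen library, with adjusted p up to 0.184.

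Cell cycle genes formed the largest group among the lower calls that a list covered. All 38 genes of the G1/S list had a negative difference (median -1.14). Of them 19 were called lower (50%, against 0.534% of all genes tested). All 35 genes of the G2/M list were also negative and 7 (20%) were called (median -1.64). DESeq2 called 25 and 30 members of these lists and limma none, where edgeR at an unadjusted p under 0.05 counted 34 in each. Of all genes tested 8.37% had such an unadjusted p, and DESeq2 called 379 of 23766. The difference was wider against type 1 (medians -1.37 and -2.06) than against type 2 (-0.99 and -1.17). In bulk RNA fewer cycling cells and less RNA of these genes per cell cannot be told apart.

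Summed over the G1/S list the tamoxifen library held 842 CPM, type 1 1914, type 2 1410 and control siRNA alone 2540. For G2/M the sums were 343, 1327, 779 and 2314 CPM. The order was the same in both lists, with tamoxifen lowest, type 2 next, type 1 above it and control siRNA alone the highest.

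E2F1, a transcription factor of S phase entry, stood at 12.04 CPM with tamoxifen, 48.8 with type 1 and 36.2 with type 2 (log2 difference -1.82, SE 0.24, adjusted p = 0.00351). Control siRNA alone gave 84.4 CPM, so that both siRNA libraries fell between it and tamoxifen. TK1, the thymidine kinase of DNA precursor salvage, was at 8.64, 34.8 and 25.2 CPM (-1.79, SE 0.23, adjusted p = 0.0033). MCM2, a subunit of the replicative helicase, was at 17.9, 62.7 and 44.8 CPM (-1.58, SE 0.23, adjusted p = 0.00543). CDT1, which loads that helicase, was at 5.39, 29.8 and 17.9 CPM (-2.13), and CDC45, which activates it, at 1.63, 7.81 and 6.07 CPM (-2.08). In each of these genes type 1 was above type 2 and tamoxifen was the lowest. RRM2 (-2.09), CLSPN (-2.13), E2F2 (-1.89) and PCNA, the sliding clamp (-1.15), were called as well. MCM10 had a larger difference, -2.46 (SE 0.45), but missed the threshold (adjusted p = 0.0759).

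Among mitotic genes, MKI67, the proliferation marker Ki-67, was at 19.9 CPM with tamoxifen, 124 with type 1 and 71.0 with type 2 (-2.29, SE 0.35, adjusted p = 0.0315). BIRC5, which encodes survivin, was at 7.90, 35.3 and 24.6 CPM (-1.92, SE 0.25, adjusted p = 0.00318), and PLK1, a mitotic kinase, at 7.50, 31.9 and 21.2 CPM (-1.82, SE 0.26, adjusted p = 0.00543). KIF4A (-2.20), TPX2 (-1.85), TOP2A (-1.61) and AURKA (-1.20) were also called. The remaining 28 members were not. AURKB, the kinase of the chromosomal passenger complex, was at 1.81, 12.6 and 6.0 CPM (-2.33, SE 0.49, adjusted p = 0.121). CDK1, at 12.6, 51.1 and 24.8 CPM, had a wide error for its size (-1.58, SE 0.50, adjusted p = 0.416), and CDC20 likewise (-2.08, SE 0.52, adjusted p = 0.267).

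E2F1, TK1, CDC45, BIRC5 and PLK1 kept their calls in all 9 fits with a library left out. MCM2 and CDT1 lost them without either T47D-TamR tamoxifen library (adjusted p up to 0.0512 for both). KIF4A, TOP2A and E2F2 lost them without the T47D-TamR control siRNA, DMSO or either tamoxifen library (up to 0.0588, 0.0592 and 0.0851), and so did PCNA and AURKA, which also lost them without BT483 type 1 (up to 0.161 and 0.147). MKI67, RRM2, TPX2 and CLSPN lost them without any of the T47D-TamR siRNA-arm libraries, DMSO or DMSO with tamoxifen (up to 0.132, 0.113, 0.113 and 0.141).

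MYC, the growth-promoting transcription factor, was at 19.4 CPM with tamoxifen, 64.4 with type 1 and 50.4 with type 2, beside 70.0 with control siRNA alone (-1.56, SE 0.27, adjusted p = 0.0167). It was 1 of 2 called members of a list of 19 ERK feedback and immediate targets, of which 14 were negative (median -0.76). The 2 were 10.5% of the list, against 0.534% of all genes tested. The other was DUSP5, a nuclear ERK phosphatase, at 10.6, 21.1 and 29.2 CPM (-1.25, SE 0.25, adjusted p = 0.0381). Differences in this list ran from -2.32 to 0.42, and DUSP6 (0.12) and SPRY2 (-0.02), other feedback genes of the same pathway, were near 0. Of 22 genes of MYC and ribosome biogenesis 21 were negative, with a median of -0.34, and MYC was the only call. MYC lost its call without the T47D-TamR control siRNA, DMSO or either tamoxifen library (adjusted p up to 0.0780), and DUSP5 without those or BT483 type 2 (up to 0.189).

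Other genes far below both knockdown libraries belonged to no fixed list. CYP2B7P, a transcribed cytochrome P450 pseudogene (chr19:40924219-40950660), had the lowest difference among genes with an average log2 CPM of at least 1. It was at 4.65 CPM with tamoxifen, 214 with type 1, 273 with type 2 and 303 in the control siRNA library (-5.71, SE 0.30, adjusted p = 8.34e-06). Its reads may be shared with CYP2B6, so the source gene is uncertain. CYP2T1P, another P450 pseudogene, was at 31.9, 252 and 339 CPM (-3.21, SE 0.34, adjusted p = 0.00318), and its reads may likewise be shared with related copies.

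GFRA1, the co-receptor for glial cell line-derived neurotrophic factor (chr10:116056925-116273467), was at 16.4 CPM with tamoxifen, 197 with type 1 and 127 with type 2 (-3.30, SE 0.34, adjusted p = 0.003). ADRA2A, an α2-adrenergic receptor, was at 2.07, 21.5 and 29.5 CPM (-3.62, SE 0.42, adjusted p = 0.00253). FGD3, an exchange factor for CDC42, was at 6.72, 40.04 and 38.6 CPM (-2.55, SE 0.31, adjusted p = 0.00253). In all 3 genes the control siRNA library, at 250, 28.2 and 33.9 CPM, lay with the NLK siRNA libraries. ASIC2, an acid-sensing sodium channel, was at 0.332, 9.93 and 23.1 CPM, of which the first is 9 counts (-5.62, SE 0.80, adjusted p = 0.0445). CYP2B7P, CYP2T1P, GFRA1, ADRA2A and FGD3 were called in all 9 fits with a library left out. ASIC2 lost its call without the T47D-TamR control siRNA, DMSO, VX-702 or either tamoxifen library (adjusted p up to 0.0599).

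The 20 genes called higher with tamoxifen were spread over several functions, and 4 of them were on any list. NLK, the siRNA target, is counted in the 20 and in the 4. BAMBI, a decoy receptor that dampens TGF-β signalling (chr10:28677342-28682939), was at 107 CPM with tamoxifen, 36.4 with type 1 and 34.6 with type 2 (log2 difference 1.59, SE 0.19, adjusted p = 0.00253). Control siRNA alone gave 45.8 CPM, so the tamoxifen library stood apart from all 3 others. NDRG1, a stress-responsive gene on the hypoxia list, was at 1390, 629 and 550 CPM beside 521 (1.24, SE 0.17, adjusted p = 0.00407). It was the only called gene of the 23 on that list, whose median was -0.08. GLP1R, a peptide hormone receptor, had the largest log2 difference of the called higher genes, 3.61 (SE 0.49, adjusted p = 0.00645), at a low level of 9.05, 0.897 and 0.618 CPM. It was under the abundance limit for naming and was added after its values were seen.

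SOCS2, a suppressor of cytokine receptor signalling (chr12:93569814-93583487), was at 295 CPM with tamoxifen, 103 with type 1, 86.7 with type 2 and 107 in the control siRNA library (1.64, SE 0.26, adjusted p = 0.0149). SOCS2-AS1, annotated on the opposite strand and overlapping it, was at 113, 43.5, 26.3 and 38.2 CPM (1.71, SE 0.27, adjusted p = 0.00943). The library kit marks strand, but the strand setting of the counting is not given in the sources used here, so reads of this pair may not be separated. SHISA2, which restrains FGF and Wnt receptor maturation, was at 567, 239 and 188 CPM (1.41, SE 0.22, adjusted p = 0.0123).

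FOXI1, a forkhead factor of ionocytes, was at 17.3 CPM with tamoxifen, 3.52 with type 1, 2.18 with type 2 and 6.37 in the control siRNA library (2.63, SE 0.41, adjusted p = 0.0171). KRT13, a keratin that estrogen is reported to raise and the 1 estrogen-list gene called higher, was at 11.4, 1.15, 2.62 and 7.15 CPM (2.55, SE 0.46, adjusted p = 0.0247). For both genes the siRNA libraries lay below the control siRNA library and the tamoxifen library above it. VTCN1, the immune checkpoint ligand B7-H4, was at 49.2, 17.4, 11.1 and 17.8 CPM (1.80, SE 0.29, adjusted p = 0.0229). The other genes named by the rule were RIIAD1 (2.16), CMAHP (1.95), ATP1A4, a sodium pump subunit (1.63), CPHL1P (1.55) and TSPAN1, a tetraspanin (1.35). CMAHP and CPHL1P are annotated as unitary pseudogenes.

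**Figure D2:**
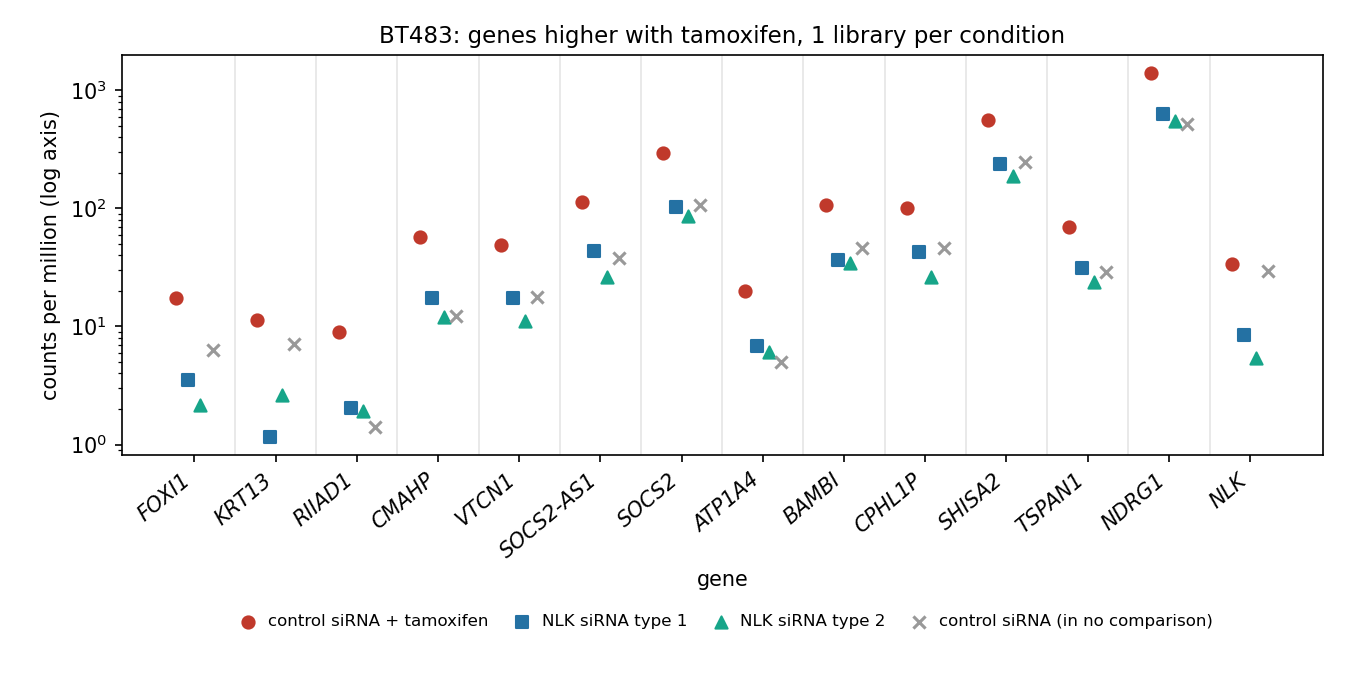
Level of 13 genes called higher with tamoxifen and of NLK in the 4 BT483 libraries, in CPM on a log axis, with 1 point per library. For BAMBI the tamoxifen point is at 107 and the NLK siRNA points at 36.4 and 34.6, and for NLK the tamoxifen point at 34.1 lies beside control siRNA at 29.6.

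BAMBI, NDRG1 and GLP1R were called, beside NLK, in all 9 fits with a library left out, and CMAHP in 8 of them, missing without type 2 (adjusted p = 0.0545). SOCS2, SOCS2-AS1, SHISA2, KRT13 and VTCN1 lost their calls without the T47D-TamR control siRNA, DMSO or either tamoxifen library (adjusted p up to 0.0912, 0.0613, 0.0780, 0.0821 and 0.0912). FOXI1, TSPAN1 and CPHL1P lost theirs without those or BT483 type 2 (up to 0.0780, 0.104 and 0.133), and RIIAD1 and ATP1A4 without those or either BT483 siRNA library (up to 0.161 and 0.140).

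Interferon-response genes were lower with tamoxifen than with NLK siRNA, but none of the 38 passed the edgeR test. At an unadjusted p under 0.05 there were 10, against 8.37% of all genes tested. DESeq2 called 11 of the list (379 of all 23766 genes) and limma 0. All 38 had a negative difference, with a median of -2.25, and the siRNAs were far from alike: the median was -1.03 against type 1 and -2.75 against type 2. The list summed to 1532 CPM with tamoxifen, 2727 with type 1, 7613 with type 2 and 1789 in the control siRNA library. The tamoxifen library was thus near the control siRNA library, and type 2 stood apart from the rest.

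IFI44L, an interferon-induced antiviral gene, was at 3.58 CPM with tamoxifen, 19.1 with type 1 and 167 with type 2 (-4.70, SE 1.92, adjusted p = 0.685). OAS2, a sensor of double-stranded RNA, was at 12.8, 60.4 and 330 CPM (-3.93, SE 1.62, adjusted p = 0.689). IFI27 was at 1.55, 3.78 and 61.7 CPM (-4.42, SE 2.22, adjusted p = 0.758). In all 3 genes the gap between the siRNA libraries was wider than that between tamoxifen and type 1. Of 19 double-stranded RNA sensing genes 17 were negative (median -0.96), and of 19 MHC class I genes 18 were (median -0.97). Neither list had an edgeR call. In each, 5 genes had an unadjusted p under 0.05, as 8.37% of all genes tested did. DESeq2 called 1 and 2 members of these lists, and limma 0. B2M, the light chain of MHC class I, was at 192, 216 and 823 CPM (-1.44, SE 0.94, adjusted p = 0.828). HLA-DRA, an interferon-inducible gene counted among the leukocyte markers, was at 5.43, 8.58 and 22.5 CPM, while PTPRC, the defining leukocyte marker, was at or below 0.0641 CPM in each library.

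**Figure D3:**
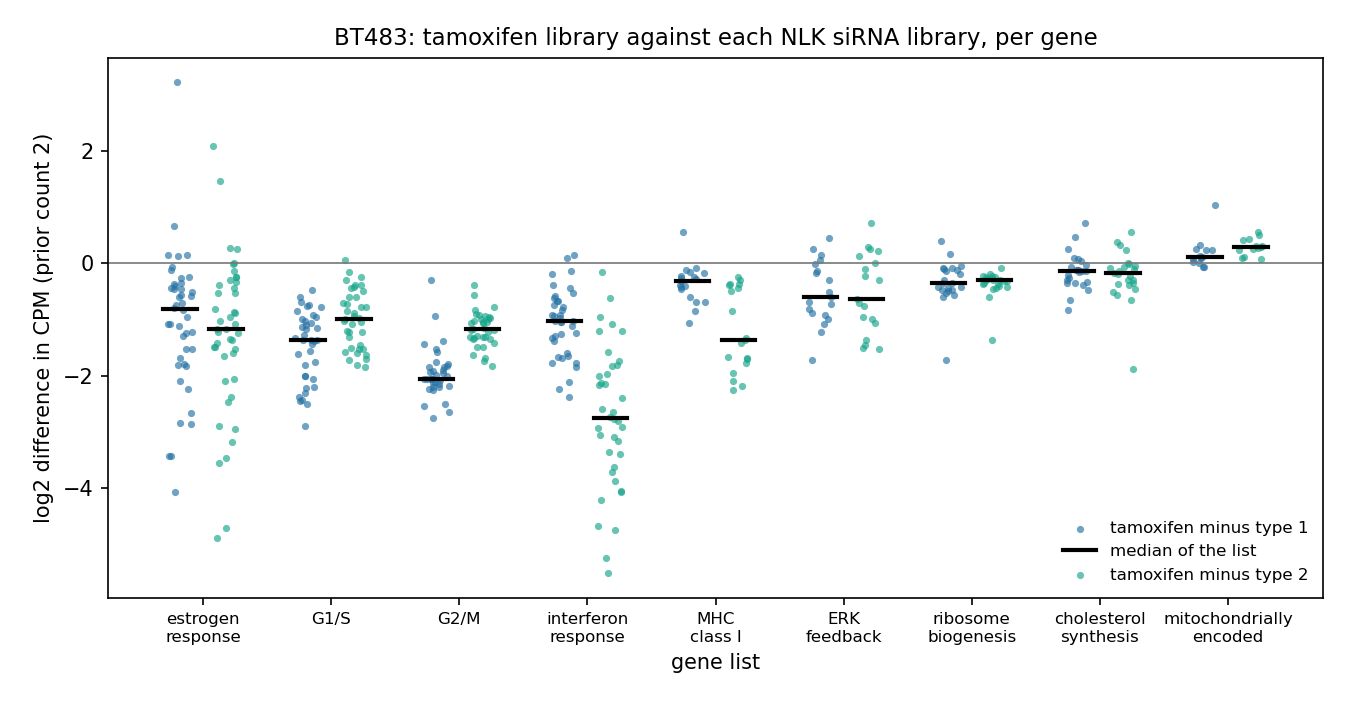
Log2 difference in CPM (prior count 2) between the tamoxifen library and each NLK siRNA library for the tested genes of 9 lists, with 1 point per gene and a bar at the list's median. The G1/S medians lie at -1.37 and -0.99, whereas the interferon medians lie at -1.03 against type 1 and -2.75 against type 2.

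Promoters are shown for 4 of these genes because their lists held a short motif often. Windows are RefSeq's, on GRCh38.p14, 250 bases before the start site to 50 after, 1 window per gene, and motifs were searched on both strands. The interferon-stimulated response element, GAAA, any 2 bases, GAAA, was in 20 of 30 interferon-list promoters (66.7%) against 2.91% of the 12625 promoters of tested genes. TTTGAA, the core of the cell cycle homology region, was in 21 of 29 G2/M promoters (72.4%) against 10.1%, and in 25 of the 99 promoters of genes called lower (25.3%). An E2F site, TTTGGCGC or TTTCGCGC, was in 12 of 34 G1/S promoters (35.3%) against 1.81%, and in 10 of the 99 (10.1%). The palindromic estrogen response element, GGTCA and TGACC with a gap of 3 bases, was in 0 of 32 estrogen-list promoters and in 0.0475% of promoters of tested genes, so windows of this size hold it rarely. Below, the 250 bases before the start are printed 5′ to 3′ along the gene's strand, and capitals mark matches to any of these motifs.
IFI44L, chr1:78620198-78620447, plus strand: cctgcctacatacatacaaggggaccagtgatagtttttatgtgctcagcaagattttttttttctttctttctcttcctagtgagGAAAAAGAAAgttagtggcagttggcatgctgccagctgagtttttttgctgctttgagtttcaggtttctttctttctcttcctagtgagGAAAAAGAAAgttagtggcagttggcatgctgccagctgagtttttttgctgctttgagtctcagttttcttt
IFI27, chr14:94110486-94110735, plus strand: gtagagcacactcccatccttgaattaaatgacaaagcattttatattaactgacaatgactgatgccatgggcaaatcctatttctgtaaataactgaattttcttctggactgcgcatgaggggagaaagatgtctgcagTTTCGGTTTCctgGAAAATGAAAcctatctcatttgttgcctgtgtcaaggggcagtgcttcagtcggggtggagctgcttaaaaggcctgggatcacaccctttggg
IFIT3, chr10:89327747-89327996, plus strand: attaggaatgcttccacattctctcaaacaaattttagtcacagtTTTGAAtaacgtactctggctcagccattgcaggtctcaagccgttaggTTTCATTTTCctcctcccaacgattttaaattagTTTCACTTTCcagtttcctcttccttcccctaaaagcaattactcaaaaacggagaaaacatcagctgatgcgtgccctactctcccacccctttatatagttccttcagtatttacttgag
MKI67, chr10:128126424-128126673, minus strand: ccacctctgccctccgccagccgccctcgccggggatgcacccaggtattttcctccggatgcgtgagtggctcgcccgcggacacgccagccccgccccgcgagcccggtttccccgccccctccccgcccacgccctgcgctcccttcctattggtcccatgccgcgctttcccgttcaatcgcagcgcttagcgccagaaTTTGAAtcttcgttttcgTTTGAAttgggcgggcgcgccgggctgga
IFI44L, IFI27 and IFIT3 each hold 2 matches to the interferon element. Those of IFI44L begin 164 and 73 bases before the start. IFIT3 also holds TTTGAA once, 205 bases before the start. MKI67 holds TTTGAA at 47 and 29 bases before the start. GFRA1 and PDZK1, among the genes of largest difference, hold TTTGAA once each and are not printed. A match is a stretch of letters, not a measured binding site.

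Many lists gave no edgeR call. Cholesterol synthesis (median -0.19 over 24 genes), fatty acid synthesis (-0.19 over 15), p53 targets (-0.40 over 24), amino acid stress under ATF4 (-0.36 over 26), the unfolded protein response (-0.22 over 14), Wnt targets (-0.32 over 16) and Notch targets (-0.20 over 15) had no called member. Neither did luminal identity (0.07 over 18), FOXO and quiescence (-0.01 over 18), the BCL2 family (-0.05 over 17), lysosome and autophagy (0.03 over 24) or nuclear oxidative phosphorylation (0.11 over 27). NF-κB and inflammation (-0.20 over 19), tamoxifen metabolism and AHR targets (0.03 over 12) and replication histones (-0.37 over 12) had none either. All 13 mitochondrially encoded genes were positive, with a median of 0.19 and no call. In these 16 lists 47 of 294 tested members (16%) had an unadjusted p under 0.05, against 8.37% of all genes, and DESeq2 called 11 and limma 0. Of 20 genes of the NLK and p38 pathway NLK was the 1 call (median 0.08), and MAPK14, p38α, was at 88.3, 83.0 and 79.2 CPM (0.12, SE 0.19, adjusted p = 0.957). Among 20 steroid receptors and coregulators the 1 call was PGR, among 20 basal genes it was ID4 (-2.34, adjusted p = 0.0271), and among 23 growth factor and receptor genes the 2 calls were AREG and IGFBP4. ID4 lost its call without BT483 type 2 or without the T47D-TamR control siRNA, DMSO or either tamoxifen library (adjusted p up to 0.133).

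Tamoxifen minus NLK siRNA was also fitted in T47D-TamR to ask where the lines differ. Unlike in BT483, its tamoxifen effect was shared by the siRNA arm and the drug arm. The T47D-TamR value thus also draws on its control siRNA, DMSO and DMSO with tamoxifen libraries. This contrast called 0 of 23766 genes higher and 0 lower with tamoxifen in T47D-TamR. NLK, the siRNA target, was at 29.1 CPM with tamoxifen, 10.1 with type 1 and 11.9 with type 2 (log2 difference 1.41, SE 0.24, adjusted p = 0.487). There the medians were -0.07 for the estrogen list, 0.03 for G1/S and 0.00 for G2/M, against -1.01, -1.14 and -1.64 in BT483. With the siRNA arm's own tamoxifen effect, which leaves the drug arm out of this contrast, they were -0.03, 0.07 and -0.01. Some estrogen-list genes had almost no RNA in T47D-TamR, so the list's median there does not measure a tamoxifen difference for them. Besides GREB1 and TFF1, these included CXCL12 (0.0381 CPM with tamoxifen, 0.197 with type 1, 0.0846 with type 2) and SUSD3 (0.0762, 0.0788 and 0.212). Others, such as MYBL1 and STC2, were well above the floor. A test of the difference between lines, BT483 minus T47D-TamR, called 11 of 23766 genes (0.0463%), all lower in BT483. At an unadjusted p under 0.05 there were 1272 genes (5.35%). With the siRNA arm's own tamoxifen effect none was called, and 994 genes had an unadjusted p under 0.05.

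AREG was at 65.4 CPM with tamoxifen, 85.6 with type 1 and 86.3 with type 2 in T47D-TamR, where its log2 difference was -0.42 against -2.31 in BT483 (difference between lines -1.89, adjusted p = 0.0167, or -1.92 and 0.236 with the siRNA arm's own tamoxifen effect). PREX1, an exchange factor for RAC, was at 102, 285 and 291 CPM in BT483 and at 182, 139 and 152 CPM in T47D-TamR (-1.81, adjusted p = 0.0167). STARD13 was at 5.13, 27.3 and 28.9 CPM in BT483 and at 31.0, 25.9 and 33.9 CPM in T47D-TamR (-2.48, adjusted p = 0.0167). In T47D-TamR the tamoxifen library was above both siRNA libraries for PREX1 and between them for STARD13, while in BT483 it was the lowest for both. E2F1 stood at 123, 125 and 98.8 CPM in T47D-TamR (-1.92, adjusted p = 0.0498). TK1, BIRC5 and CDC45 differed between lines at the same adjusted p. With the siRNA arm's own tamoxifen effect the sizes were -2.50 for STARD13, -1.83 for PREX1 and -1.96 for E2F1, with adjusted p of 0.236, 0.293 and 0.293.

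GREB1 and TFF1 could not be compared between lines because T47D-TamR held almost none of their RNA. GREB1 was at 0.114 CPM with tamoxifen, 0.118 with type 1 and 0.0423 with type 2, and TFF1 at 0, 0 and 0.0423, where 3 counts are 0.112 to 0.126 CPM before TMM scaling. PGR was at 0.0381, 0.512 and 0.846 CPM in T47D-TamR, with the tamoxifen value under the floor of 3 counts. Its fitted log2 difference there was -2.65 (SE 0.92), and -3.98 with the siRNA arm's own tamoxifen effect. It was not called in T47D-TamR, and at this level its direction there is uncertain. Its difference between lines was -1.67 (SE 1.28, adjusted p = 1). NDRG1, in contrast, was at 65.04, 35.5 and 37.6 CPM in T47D-TamR, a log2 difference of 0.87, and the difference between lines was 0.37 (adjusted p = 1). The 11 calls between lines became 0 without the T47D-TamR control siRNA library, either T47D-TamR tamoxifen library or DMSO, although 575 to 995 genes had an unadjusted p under 0.05 in those fits. They became 5 without VX-702, 6 without T47D-TamR type 2, 43 without its type 1, 75 without BT483 type 1 and 126 without BT483 type 2. DESeq2 called 116 and limma 0, with 1050 genes at an unadjusted p under 0.05.

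**Figure D4:**
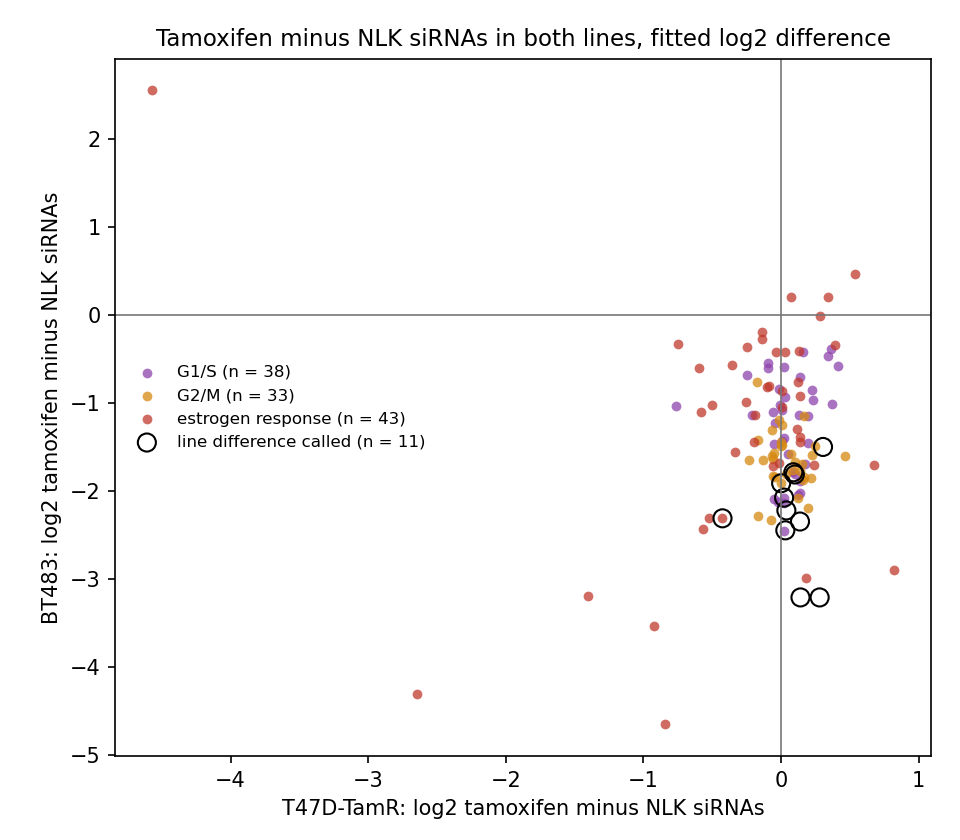
Fitted log2 difference, tamoxifen minus NLK siRNAs, in T47D-TamR (horizontal axis, with 1 tamoxifen effect for both arms) and BT483 (vertical axis) for members of 3 lists with an average log2 CPM of at least 1, with circles around the 11 genes called for the difference between lines. The G1/S and G2/M points spread downward in BT483, with medians of -1.14 and -1.64 over all members, and lie near 0 in T47D-TamR. The abundance limit was set on the BT483 libraries, so some estrogen-list genes plotted, such as GREB1, had almost no RNA in T47D-TamR.

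Read gene by gene against each siRNA, the 14258 genes with an average log2 CPM of at least 1 held 291 (2.04%) at least 2-fold below both siRNA libraries and 42 (0.295%) at least 2-fold above both. These counts carry no test. The SD of the log2 differences over 23766 genes was 0.699 for tamoxifen against type 1, 0.690 against type 2 and 0.662 between the siRNAs. Over all tested genes, those with few counts included, the siRNA libraries thus differed from each other nearly as widely as either did from tamoxifen. Counting error enters each of these SDs and was not separated from them. Of the G2/M list 24 of 35 genes and of the G1/S list 18 of 38 were at least 2-fold below both, as were 18 of 44 estrogen-response genes and 20 of 38 interferon genes. These list counts have no abundance limit, without which 764 of all 23766 tested genes were at least 2-fold below both.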

How the data were processed

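Stranded messenger RNA libraries were read from both ends, per the labels' protocols. GRCh38 was the build, per the submitters' processing notes. The aligner, annotation and counting settings were not given in the sources used here. For each library the deposited file holds the authors' raw counts of 59087 genes by symbol, and the authors also deposited a table of log2 TPM values normalized across the series. That table served an alternative test. Counts were mapped to samples by file, and 0 columns were left unmapped.

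Counts were tested with edgeR 4.0.16 in R 4.3.3: TMM scaling, filterByExpr (23766 genes), a quasi-likelihood fit of 10 libraries without the BT483 control siRNA library (7 coefficients, 3 residual degrees of freedom, biological coefficient of variation 0.174), 2-sided, Benjamini-Hochberg adjusted over all genes in each of 2 tests. The coefficients were BT483 NLK siRNA (types 1 and 2 together), BT483 tamoxifen, the T47D-TamR siRNA and drug arms, and T47D-TamR NLK siRNA (both types), tamoxifen (1 effect shared by both arms) and VX-702. CPM values are TMM-scaled, and the floors of 3 counts are not. Single-library log2 differences used a prior count of 2. The code was tested on simulated data. Alternatives used DESeq2 1.42.0, limma 3.58.1 (log2 TPM of at least 1), other filters and scaling, and leaving out libraries.

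Named genes were NLK, the 12 highest and 12 lowest called genes with an average log2 CPM of at least 1 on the same side of both siRNAs, 4 and 4 for the line difference, up to 4 per list by size of difference, other called members of the lists described, and ESR1, PGR, GREB1, TFF1, MYC, CCND1, MAPK14, ERBB2 and BCL2. Members and the 34 lists were chosen with earlier results of these data known. Gene positions are from GENCODE 29. Intervals and floors cover counting error only.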

Additional observations from a re-analysis of the deposited data

Results flagged for a closer look

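The test of the difference between BT483 and T47D-TamR singled out 11 genes, each with a lower log2 difference (tamoxifen minus NLK siRNAs) in BT483. The size of the difference between lines was -3.49 for GPC6, -3.36 for CYP2T1P, -2.49 for AC112777.1, -2.48 for STARD13, -2.26 for APOBEC3B, -2.10 for CDC45, -1.92 for BIRC5, -1.92 for E2F1, -1.89 for AREG, -1.88 for TK1 and -1.81 for PREX1. GPC6, a glypican, was at 0.369 CPM with tamoxifen, 2.82 with type 1 and 4.0 with type 2 in BT483, and at 30.9, 26.2 and 27.0 CPM in T47D-TamR. APOBEC3B, a cytidine deaminase, was at 1.48, 7.81 and 6.15 CPM in BT483 and at 54.8, 44.8 and 57.7 CPM in T47D-TamR; its reads may be shared with close paralogs. CYP2T1P and AC112777.1, the latter known by a clone name, are both annotated as pseudogenes, and their reads may be shared with related copies. All 11 lost the call with an own tamoxifen effect in each T47D-TamR arm, and without the T47D-TamR control siRNA, DMSO or either T47D-TamR tamoxifen library.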

How the results depend on the processing

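Direction was checked under the alternatives for a chosen set of genes, not for every gene tested. DUSP6, SPRY2 and BCL6 were outside that set. Within it no direction turned except for ESR1 and BCL2, neither of which was called. ESR1 was at -0.25 without type 1 and 0.026 without type 2. BCL2 was at -0.041 without type 1 and 0.49 without type 2. Of the list medians, only those of FOXO, lysosome, nuclear oxidative phosphorylation, histone and leukocyte genes, none of them with a call, changed sign under an alternative. Counts of called genes moved more. With 147 called here (20 higher, 127 lower), DESeq2 called 379 (47 and 332) and no expression filter gave 648 (116 and 532). At least 10 counts in every library gave 55 (7 and 48), limma 5 (0 and 5), all 11 libraries 173 and RLE size factors 155. The 3 BT483 libraries alone gave 106 (23 higher and 83 lower), of which 76 were among the 147. Giving each T47D-TamR arm its own tamoxifen effect, added after seeing the data, gave 40 (6 and 34). Leaving out 1 library gave 35 to 331 calls, 6 to 66 higher and 29 to 265 lower.

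For the difference between lines, with 11 calls, all lower in BT483, RLE gave 23 (23 lower), no filter 266 (44 higher and 222 lower), DESeq2 116 (6 and 110), all 11 libraries 5 (5 lower), and at least 10 counts in every library, limma, and an own tamoxifen effect in each T47D-TamR arm 0 each (0 lower). Leaving out 1 library gave 0 to 126 calls, 0 to 11 higher and 0 to 126 lower. The counts at least 2-fold from both siRNAs, 42 above and 291 below, became 384 and 764 with no floor on expression. The causes were not tested. No paired analysis was possible because each group holds 1 library. Without replicates the depth of 14637083 to 26915863 counts limits only the counting error, and the type 1 library is the shallowest.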
